A study of Mus musculus with 12 samples.

Results

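The mammalian mitochondrial ribosome is built from proteins encoded in the nucleus, and 78 genes for these proteins are described here across 4 treatments of mouse prostate organoids. They were taken as every gene of the expression table whose name is Mrpl or Mrps followed by a number and an optional letter, with the 5 pseudogenes of such names left out. The 78 are 49 Mrpl genes and 29 Mrps genes of 24674 genes in all, and each of them is annotated as protein coding. RNA was sequenced from organoids grown from basal cells of the prostate of wild-type C57BL/6 mice. The groups were vehicle, UK5099 (an inhibitor of the mitochondrial pyruvate carrier), Butyrate (sodium butyrate in the study's methods, an inhibitor of histone deacetylases) and UK5099 + Butyrate, with 3 samples each. The comparisons ask what each treatment did alone and whether the pair together departed from the sum of their effects. The labels give neither dose nor time, and do not say whether the 3 samples of a group came from separate mice, so the p-values measure only the spread between these samples.

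The sequencing depth was between 33251715 and 43498769 fragments per sample. The basal keratins Krt5 and Krt14 were high in vehicle, at 1848 and 1676 TPM (a level scaled for gene length and library size), and the luminal keratin Krt8 was also present at 916 TPM, while Ptprc (leukocytes) and Pecam1 (endothelium) stood near 0. With UK5099, butyrate and both, Krt8 stood at 364, 275 and 119 TPM, Krt5 at 4930.4, 3152 and 4514 TPM and Krt14 at 5047, 1391 and 3641 TPM. Both luminal keratins and both epithelial markers (Epcam and Cdh1) were lower than vehicle by mean in every treated group, and all 3 basal markers were higher, except Krt14 with butyrate. Vim was at 7.98 TPM in vehicle and at 1.66, 0.364 and 0.154 TPM in the treated groups. The part of these shifts in the results on the 78 genes was not tested. UK5099 sample 1 and combination sample 1 stood apart from the other samples of their groups, with a chi-square per degree of freedom of 6.31 to 6.66 against 1.93 to 2.65 for all other pairs of replicates. In bulk RNA, fewer cells expressing a gene and less of its RNA per cell cannot be told apart.

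The mitochondrial ribosome translates the mRNAs of the mitochondrial genome, all of which encode subunits of the respiratory chain and of ATP synthase. Its small subunit holds the 12S rRNA (mt-Rnr1) and binds the mRNA, its large subunit holds the 16S rRNA (mt-Rnr2) and forms the peptide bond, and both rRNAs are transcribed inside the organelle, whereas all of the proteins are made in the cytosol and imported. Many of the proteins descend from bacterial ribosomal proteins, and others have no bacterial counterpart and are specific to mitochondria.

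In vehicle the 78 genes spanned a wide range of levels around a median of 16.1 TPM, against 3.07 TPM for all protein-coding genes. The deposited TPM are fragments over the full extent of each gene on the chromosome, with its introns, so a short gene reads high. The median span was 7899 bp for the 78 genes and 23220 bp for protein-coding genes. The 5 highest were Mrpl53, Mrpl43, Mrpl34, Mrpl24 and Mrpl41, all of the large subunit, whose spans were between 789 and 4167 bp. Mrpl53 stood at 120.3, 130.1 and 126 TPM in the vehicle samples and Mrpl43 at 110.1, 118 and 114 TPM, so that Mrpl53 was above Mrpl43 without overlap. The 5 lowest were Mrps28, Mrpl23, Mrpl48, Mrpl1 and Mrps27. Mrps28, which spans 121773 bp, stood at 0.425, 0.428 and 0.371 TPM, below every vehicle value of the other 77 genes. Mrps28 and Mrpl23 were the only members with a vehicle mean under 1 TPM, and 76 genes stood at or above it.

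**Figure D1:**
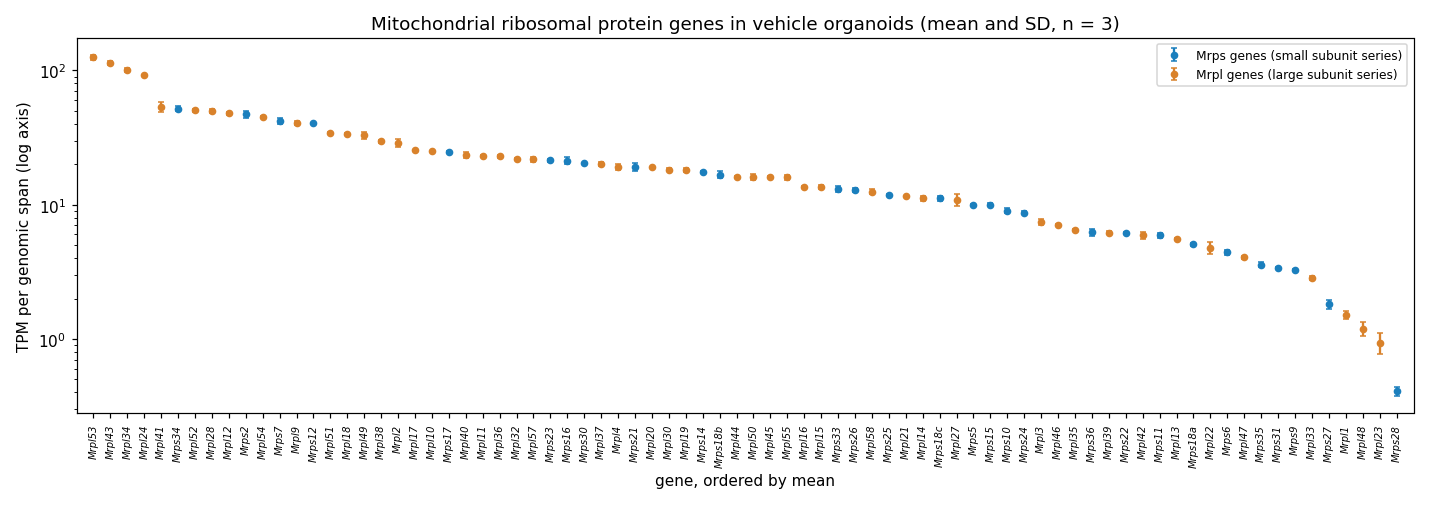
Level of each of the 78 genes in vehicle, as mean and SD of 3 samples, in TPM per genomic span on a log axis, with Mrps genes in blue and Mrpl genes in orange. The genes run from Mrpl53 at a mean of 125 TPM to Mrps28 at 0.408 TPM.

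The order of levels depended on the length by which fragments were divided. When fragments were instead divided by the exonic length of each gene ID in GENCODE M21, a choice made after seeing the data, the highest was Mrps21, which ranked 33 by deposited TPM, followed by Mrpl24, which ranked 4. Mrps6, with a span of 53958 bp, moved from rank 68 to rank 3. Mrpl23 was the lowest of the 78 by exonic length and Mrpl48 ranked 77. Neither gene gave a whole number of fragments in any sample. Of the 57 genes with values under 1000 fragments, 28 had whole numbers throughout and 17 had none, and fractional values were taken as fragments divided among genes. Mrpl53, Mrps18b, Mrpl27 and Mrpl30 belong to those 17, so their levels are less certain. The spans of 10 of the 78 genes overlapped another gene on the same strand and 32 overlapped one on the opposite strand. Mrps6, for example, holds Slc5a3, a myo-inositol transporter gene, on its own strand.

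The regions in front of 5 genes on which the later comparisons turn are shown, those of Mrps12, Mrpl37, Mrpl55, Mrpl17 and Mrpl9. Mrps12 and Mrpl37 are among 17 of the 78 genes with a protein-coding gene on the other strand starting at most 500 bp upstream. The other 3 shown are not. Pairs whose first bases overlap, such as Mrps11 and Mrpl46, were not counted. RefSeq promoter windows (GRCm38.p6, 250 bases before and 50 after the start) were found for 69 of the 78 genes, which had 75 windows. A gene was counted if any of its windows matched, whereas the shares beside it are per window. Genes with more than 1 window thus had more chances to match. The core of the ETS family site, CCGGAAG on either strand, was present for 26 of the 69 genes or 37.7%, against 8.86% of all 32851 windows and 14.7% of the 15721 windows of protein-coding genes. The NRF1 core GCGCATGC was present for 8 genes or 11.6%, against 2.71% of all windows and 4.48% of coding ones. The YY1 core AAGATGGCG was also present for 8 genes, against 1.403% of all windows and 2.43% of coding ones. The E-box CACGTG, bound by Myc among others, was present for 5 genes or 7.25%, against 7.15% of all windows and 9.09% of coding ones, and the CCAAT box for 27 genes or 39.1%, against 37.4% and 37.5%. None of the 5 motifs is contained in another, and a match describes letters, not a bound site. Shown are the longest stretches of the 250 bases that lie outside every annotated exon, 5′ to 3′ on the strand of the gene, with capitals for any of the 5 motifs on either strand. They lie at chr7:28741822-28741991, minus strand (Mrps12), chr4:107066869-107066987, minus strand (Mrpl37), chr11:59202386-59202485, plus strand (Mrpl55), chr7:105811100-105811337, minus strand (Mrpl17) and chr3:94443086-94443317, plus strand (Mrpl9).
Mrps12: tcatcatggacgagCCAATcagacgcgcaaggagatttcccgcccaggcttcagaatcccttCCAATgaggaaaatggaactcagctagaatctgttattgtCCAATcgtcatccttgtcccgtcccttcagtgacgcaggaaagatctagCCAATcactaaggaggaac
Mrpl37: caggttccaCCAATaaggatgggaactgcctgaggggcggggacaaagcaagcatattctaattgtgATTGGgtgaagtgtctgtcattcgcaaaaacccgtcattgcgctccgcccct
Mrpl55: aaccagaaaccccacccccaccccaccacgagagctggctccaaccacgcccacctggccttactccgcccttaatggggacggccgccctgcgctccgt
Mrpl17: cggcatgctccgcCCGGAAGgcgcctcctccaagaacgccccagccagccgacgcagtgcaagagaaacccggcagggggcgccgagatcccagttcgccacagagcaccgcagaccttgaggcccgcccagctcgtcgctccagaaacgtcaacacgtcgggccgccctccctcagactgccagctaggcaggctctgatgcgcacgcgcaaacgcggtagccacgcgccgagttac
Mrpl9: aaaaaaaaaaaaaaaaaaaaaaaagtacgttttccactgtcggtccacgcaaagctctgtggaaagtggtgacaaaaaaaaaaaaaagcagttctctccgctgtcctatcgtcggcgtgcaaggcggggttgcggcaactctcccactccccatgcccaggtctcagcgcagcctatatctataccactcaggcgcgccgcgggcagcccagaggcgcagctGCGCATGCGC
Mrps12, the gene that differed most with UK5099, carries 4 CCAAT boxes in this stretch. Mrpl37 carries 2 CCAAT boxes in its stretch, one on each strand. Mrpl55, the gene that differed most with butyrate, carries none of the 5 motifs here. Mrpl17, which rose with butyrate, carries an ETS core. Mrpl9 carries the NRF1 core on both strands, in overlapping positions near the end of the stretch. Outside the printed stretches, the full windows also held an ETS core for Mrps12 and an NRF1 core for Mrpl17. That of Mrpl37 also held a YY1 core and an E-box.

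Summed over the 78 genes, deposited TPM were lower in every treated group. The sum was 1778 ± 19.4 TPM in vehicle, 1572 ± 8.78 under UK5099, 1484 ± 17.05 under butyrate and 1376 ± 10.1 under both (SD, n = 3), and no 2 groups overlapped. As a share of all recovered fragments the order was different. That share was 0.194 ± 0.00105% in vehicle, 0.1798 ± 0.00295% under UK5099, 0.209 ± 0.00225% under butyrate and 0.198 ± 0.000689% under both. Thus UK5099 samples were below vehicle on both measures, whereas butyrate samples were below vehicle in TPM and above it in fragments. The direction of a small difference with butyrate therefore depends on the scale, and the counts are given as deposited and after a second scaling, the median of ratios, which sets the typical gene equal between samples. As deposited, the median difference from vehicle of the 13345 genes averaging 1 TPM or more was -0.12 with UK5099, -0.30 with butyrate and -0.41 with both, in log2(TPM + 1).

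**Figure D2:**
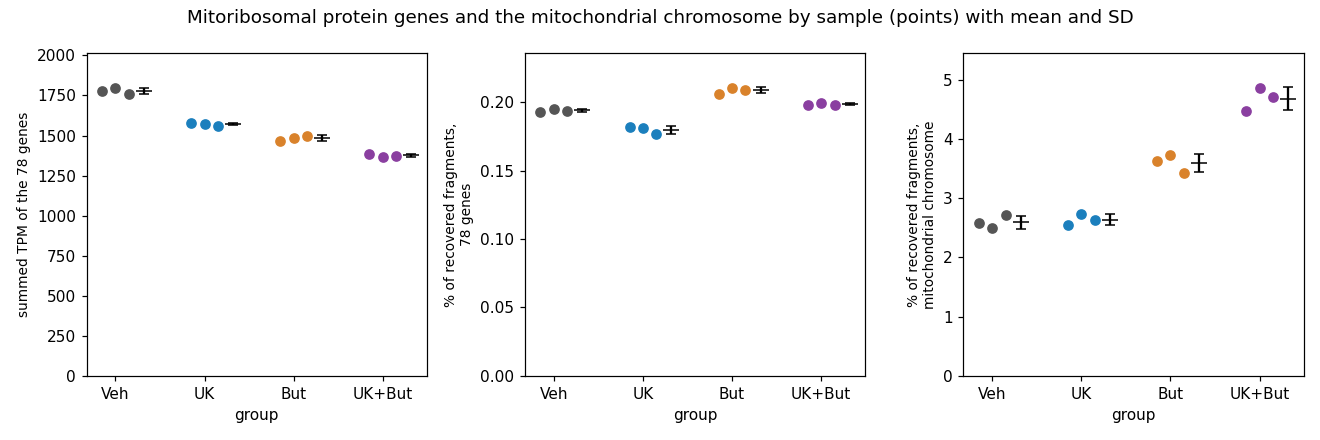
Values by sample (points) with mean and SD for vehicle (Veh), UK5099 (UK), butyrate (But) and UK5099 + Butyrate (UK+But): summed TPM of the 78 genes, their percentage of recovered fragments, and the percentage of fragments from the mitochondrial chromosome. The summed TPM are 1778 in vehicle and 1376 with both, the fragment share is highest with butyrate at 0.209%, and the share of the mitochondrial chromosome is 2.59% in vehicle and 4.68% with both.

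With UK5099, 42 of the 78 genes were lower and none was higher at an adjusted p below 0.01 (limma with Benjamini-Hochberg adjustment over all genes) in the deposited TPM, where 24.7% and 8.24% of all genes tested were called. Of genes averaging 1 TPM or more, 38.1% were called lower and 12.3% higher. The median difference of the 78 genes was -0.16, beside -0.12 for expressed genes. After median of ratios scaling 13 genes were lower and 4 were higher, against 13.6% and 13.6% of all genes, and the median was -0.03. Of genes averaging 1 TPM or more, 19.9% were then lower and 21.8% higher. By voom on the recovered fragments, 15 were lower and 3 higher. The library sizes for voom were also set by a median of ratios. Calls shared by these last 2 scales are therefore not separate evidence, here and below. There were 12 lower calls shared by all 3 scales, while 13.3% of all genes were called lower on all of them. At an unadjusted p under 0.05, 2 genes were higher as deposited. No member differed by more than 1 on the log2 scale in any comparison, by limma or by voom, whereas 1.84% of all genes passed that limit and the p limit with UK5099.

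Mrps12, a small subunit protein next to the decoding centre, differed most with UK5099. Its place is given as ENSMUSG00000045948, chromosome 7, 28439066 to 28441245, minus strand, in the coordinates of the table, and the submitters' processing notes name the build GRCm39, which holds for the gene coordinates that follow. Its vehicle samples stood at 40.7, 40.7 and 40.4 TPM, its UK5099 samples at 27.9, 29.5 and 29.00, its butyrate samples at 29.5, 29.6 and 29.1 and its combination samples at 25.3, 25.1 and 25.6. Every treated sample was below every vehicle sample, the single treatments overlapped, and the combination was lowest without overlap. The difference with UK5099 was -0.48 ± 0.019, adjusted p = 8.30e-08, and it was -0.33, adjusted p = 4.33e-07 after median of ratios scaling.

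Mrps5, a small subunit protein at the mRNA entry, stood at 9.88, 9.94 and 10.2 TPM in vehicle and 6.999, 7.33 and 7.43 TPM with UK5099, without overlap (-0.42 ± 0.027, adjusted p = 1.78e-06). The large subunit genes Mrpl40 (-0.40), Mrpl37 (-0.39), Mrpl49 (-0.37) and Mrpl38 (-0.35), none of which has a bacterial counterpart, completed the 6 lowest. All 6 kept a lower call on the 3 scales, together with Mrpl11, Mrpl44, Mrpl58, Mrps6, Mrpl12 and Mrpl13. Mrpl12, which also binds the mitochondrial RNA polymerase, stood at 46.9, 49.4 and 47.2 TPM in vehicle and 38.9, 38.4 and 38.98 TPM with UK5099 (-0.30 ± 0.036, adjusted p = 1.10e-04).

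At the other end, Mrpl14 stood at 11.8, 10.99 and 10.8 TPM in vehicle and 12.1, 12.04 and 12.4 TPM with UK5099. The UK5099 samples were all above the vehicle samples, but the difference of 0.11 ± 0.033, adjusted p = 0.0236 missed the limit as deposited and passed it after median of ratios scaling (0.25, adjusted p = 1.94e-04). Mrps23 (0.07), Mrps10 (0.02), Mrpl50 (-0.01), Mrpl33 (-0.03) and Mrpl30 (-0.03) completed the 6 highest among genes of at least 1 TPM in vehicle, and none of them was called as deposited. Mrpl23, under that level, had a higher coefficient (0.17 ± 0.082, adjusted p = 0.143).

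With butyrate the 78 genes spread further. In the deposited TPM 47 were lower and 1 was higher, against 35.9% and 9.70% of all genes. Of genes averaging 1 TPM or more, 57.6% were called lower and 11.7% higher. The median of the 78 was -0.19, above the -0.30 of expressed genes, and 56 of the 78 lay above that value. After median of ratios scaling 33 were higher and 5 lower, against 20.2% and 18.2% of all genes, and the median was 0.12. Of genes averaging 1 TPM or more, 27.6% were then higher and 28.6% lower. By voom, 28 were higher and 10 lower. In all, 9 genes were called lower as deposited and higher after scaling, so no direction is given for the 78 as a group. Calls shared by all 3 scales were 4 lower and 1 higher, against 18.1% and 9.66% of all genes, and no gene passed both limits, which 3.54% of all genes did.

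**Figure D3:**
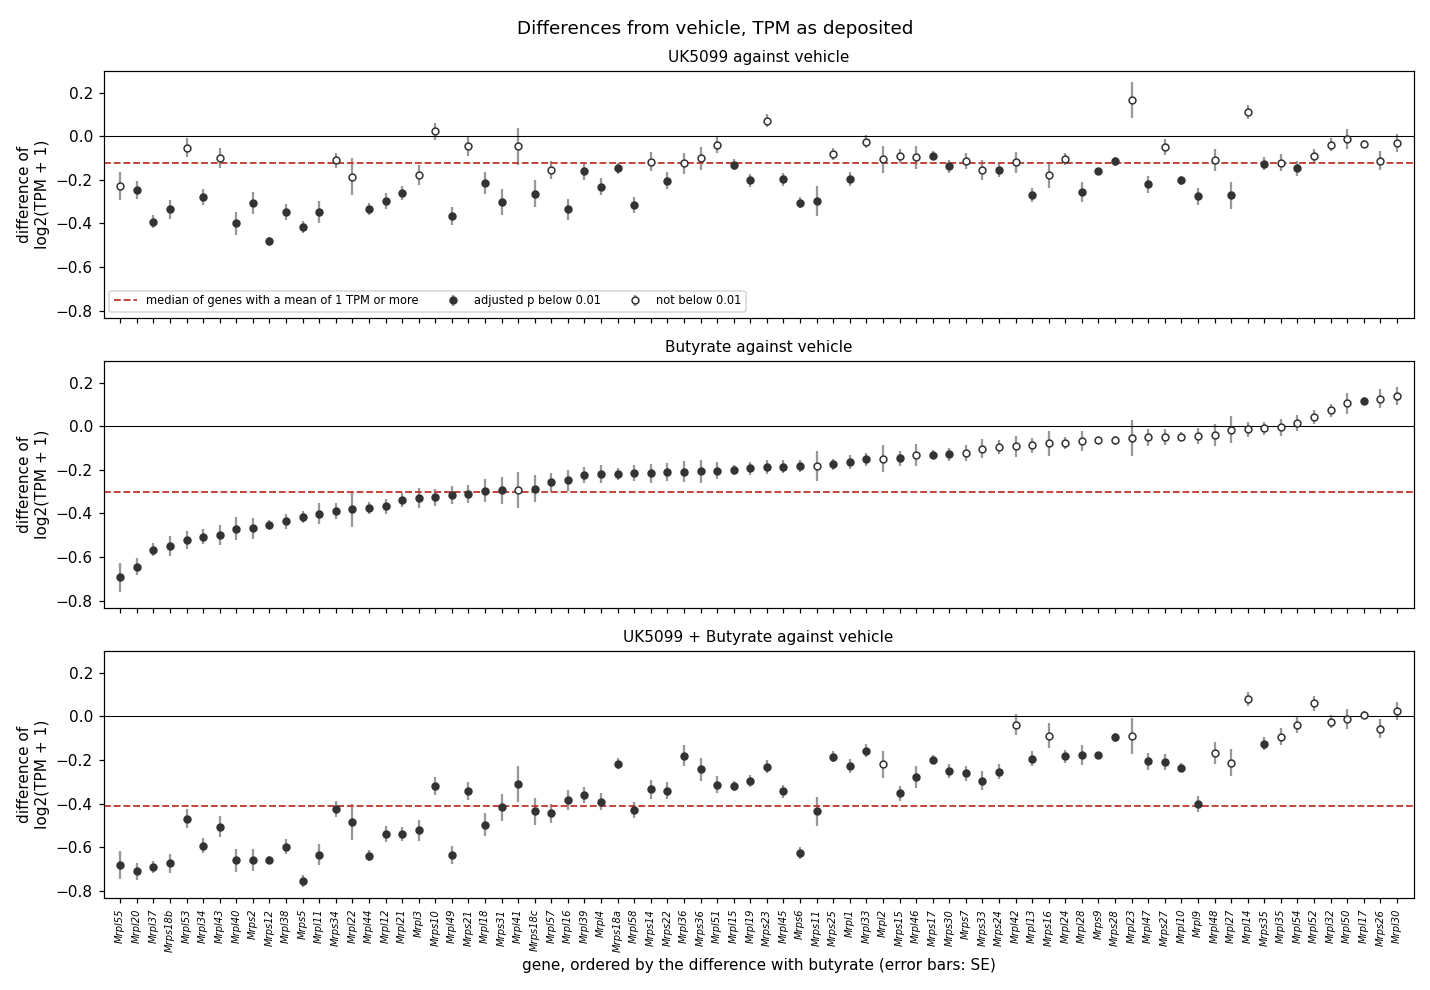
Difference of log2(TPM + 1) from vehicle for each of the 78 genes with UK5099, butyrate and both, with SE, in TPM as deposited and ordered by the difference with butyrate. Filled points have an adjusted p below 0.01, and the dashed line is the median of genes averaging 1 TPM or more, which is -0.12, -0.30 and -0.41 in the 3 panels. Mrpl55 is at the left end and Mrpl30 at the right.

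Mrpl55, a large subunit protein (ENSMUSG00000036860, chromosome 11, 59093312 to 59096960, plus strand), differed most with butyrate. Its values were 15.8, 16.7 and 15.4 TPM in vehicle, 13.4, 13.3 and 13.7 under UK5099, 8.41, 10.5 and 9.68 under butyrate and 9.82, 9.77 and 9.16 under both. The butyrate and combination samples overlapped and all lay below the UK5099 samples. The difference with butyrate was -0.69 ± 0.065, adjusted p = 9.07e-06, and -0.36, adjusted p = 0.00143 after median of ratios scaling.

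Mrpl20, which binds the 16S rRNA early in assembly, followed the same order. It stood at 19.1, 19.04 and 19.1 TPM in vehicle, 16.7, 15.4 and 15.7 under UK5099, 11.2, 12.6 and 11.8 under butyrate and 11.2, 11.4 and 11.2 under both (-0.64 ± 0.040, adjusted p = 4.82e-07 with butyrate). Mrpl37 (-0.57) and Mrps18b (-0.55) were the other members lower on all 3 scales. The remaining 2 of the 6 lowest, Mrpl53 (-0.52) and Mrpl34 (-0.51), stand among the 5 highest genes by TPM, and their differences after scaling were -0.17 and -0.15 with adjusted p above 0.01.

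Mrpl17, a large subunit protein beside the exit of the peptide tunnel (ENSMUSG00000030879, chromosome 7, 105452413 to 105460306, minus strand), was the gene that rose. It stood at 25.5, 25.5 and 25.4 TPM in vehicle and 27.4, 27.9 and 27.7 TPM with butyrate, so that each butyrate sample was above each sample of the other groups. The rise was small, at 0.12 ± 0.019, adjusted p = 4.82e-04, and was 0.46, adjusted p = 1.54e-08 after scaling. With both compounds Mrpl17 stood at 24.9, 25.8 and 25.9 TPM, which overlapped vehicle. Mrpl30 had a larger coefficient (0.14 ± 0.042, adjusted p = 0.0192) but its butyrate samples spread more, from 19.0 to 21.3 TPM. Mrps26 (0.13), Mrpl50 (0.10), Mrpl32 (0.07) and Mrpl52 (0.04) were not called as deposited, and each was called higher after scaling, from 0.39 for Mrpl52 to 0.46 for Mrps26.

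**Figure D4:**
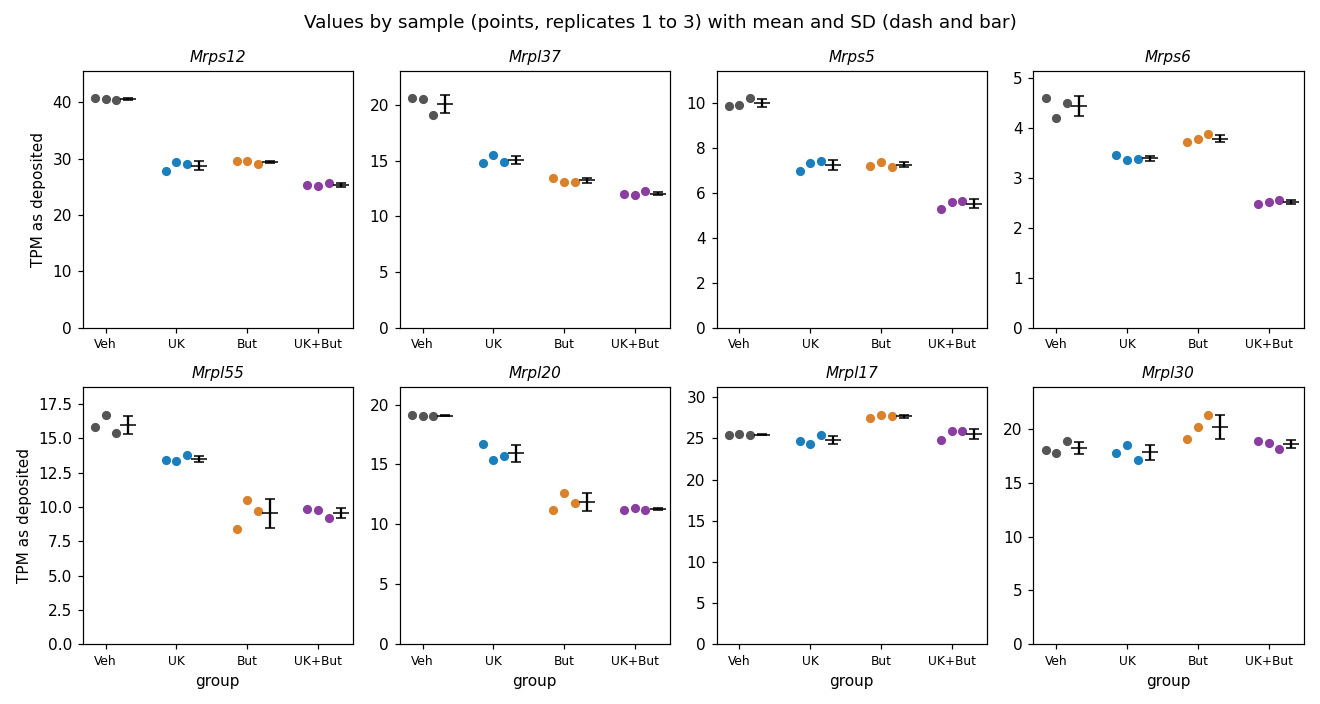
Deposited TPM in each sample for 8 genes, with mean and SD beside the points, for vehicle (Veh), UK5099 (UK), butyrate (But) and UK5099 + Butyrate (UK+But). Mrpl55 and Mrpl20 are lowest in the 2 groups given butyrate, Mrps12 overlaps between the single compounds below vehicle, Mrps5 and Mrps6 are lowest with both, and Mrpl17 and Mrpl30 are highest with butyrate.

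With both compounds 63 genes were lower and none higher as deposited, where 40.8% and 10.1% of all genes were called. Of genes averaging 1 TPM or more, 64.2% were called lower and 11.2% higher. The median of the 78 was -0.31, beside -0.41 for expressed genes. After median of ratios scaling 34 were higher and 8 lower, against 23.4% and 20.6% of all genes. Of genes averaging 1 TPM or more, 30.8% were then higher and 31.5% lower. By voom 30 of the 78 were higher and 13 lower. The 2 limma scales gave opposite calls for 21 genes. At an unadjusted p under 0.05, 1 gene was higher as deposited. A total of 8 lower calls were shared by all 3 scales, where 20.5% of all genes were. No gene passed both limits, and 6.42% of all genes did.

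Mrps5 differed most with both compounds. Its combination samples stood at 5.31, 5.63 and 5.66 TPM, below its butyrate samples at 7.23, 7.39 and 7.17 TPM and its UK5099 samples (-0.75 ± 0.027, adjusted p = 7.03e-09, and -0.31 after scaling). Mrps6 stood at 4.59, 4.204 and 4.497 TPM in vehicle, 3.45, 3.36 and 3.37 under UK5099, 3.71, 3.78 and 3.87 under butyrate and 2.47, 2.52 and 2.56 under both. No 2 groups of Mrps6 overlapped, and the combination was lowest (-0.63 ± 0.026, adjusted p = 1.88e-08). How fragments were divided between Mrps6 and Slc5a3, inside its span, is not given in the sources used here. Mrpl20 (-0.71), Mrpl37 (-0.69), Mrps18b (-0.67), Mrps12 (-0.66), Mrpl44 (-0.64) and Mrpl49 (-0.64) were the other genes lower on all 3 scales. Mrpl55 (-0.68) and Mrpl40 (-0.66) were called lower as deposited and by voom, and not after median of ratios scaling.

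The 6 highest with both compounds were Mrpl14 (0.08), Mrpl52 (0.06), Mrpl30 (0.03), Mrpl17 (0.01), Mrpl50 (-0.01) and Mrpl32 (-0.02), all of the large subunit, and none of these was called as deposited. Mrpl52 stood at 49.2, 51.5 and 50.9 TPM in vehicle and 52.1, 53.2 and 52.9 TPM with both. All 6 were called higher after median of ratios scaling, from 0.46 for Mrpl32 to 0.56 for Mrpl52.

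**Figure D5:**
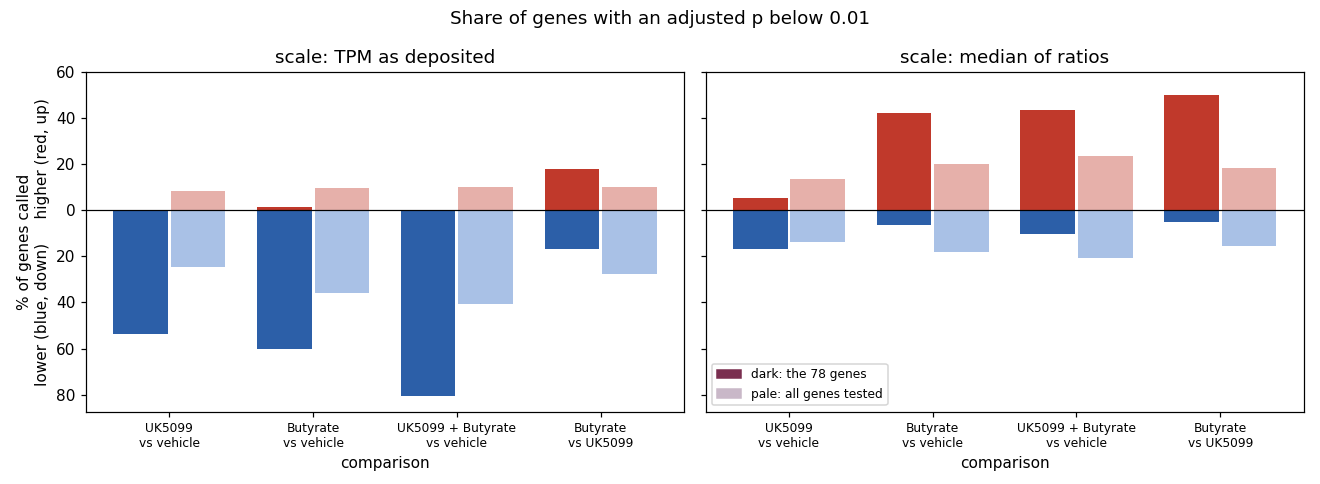
Percentage of genes called higher (red, upward) or lower (blue, downward) at an adjusted p below 0.01, for the 78 genes (dark) and for all genes tested (pale), as deposited (left) and after median of ratios scaling (right). With butyrate the dark bars point mostly down on the left, with 47 genes lower, and mostly up on the right, with 33 genes higher. Shares of genes averaging 1 TPM or more are not drawn.

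Set directly against UK5099, butyrate left 14 genes higher and 13 lower as deposited, where 9.97% and 27.5% of all genes were called, and 39 higher and 4 lower after scaling, where 18.1% and 15.6% were. Of genes averaging 1 TPM or more, 11.8% were higher and 45.6% lower as deposited, and 24.1% and 25.4% after scaling. No member passed both limits, against 1.86% of all genes. All 14 higher calls were shared by the 3 scales, against 9.68% of all genes, and so were 4 lower calls, against 15.4%. The 14 became 8 without UK5099 sample 1 and combination sample 1, and between 6 and 9 when Vehicle 1, UK5099 2, UK5099 3, Butyrate 2, Butyrate 3 or combination sample 2 was left out. The 3 highest were Mrpl27 (0.26 ± 0.061, adjusted p = 0.00627), Mrps26 (0.24 ± 0.043, adjusted p = 0.00134) and Mrpl9 (0.23 ± 0.038, adjusted p = 7.04e-04). Mrpl9, of the large subunit, stood at 41.96, 40.6 and 39.4 TPM in vehicle, 33.3, 32.8 and 34.2 under UK5099, 40.2, 39.2 and 38.9 under butyrate and 32.6, 29.3 and 29.8 under both. It was low in both groups given UK5099, and its butyrate samples overlapped vehicle. The 3 lowest were Mrpl53 (-0.47), Mrpl55 (-0.47) and Mrpl43 (-0.40). Mrpl53 and Mrpl55 were on the list shared by the 3 scales, with Mrpl20 and Mrps10. Mrps10 stood at 8.74, 9.44 and 9.34 TPM with UK5099 and 6.91, 7.09 and 6.96 TPM with butyrate.

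The interaction asks whether the 2 compounds together departed from the sum of their effects on the log2 scale. It passed the p limit for 2 of the 78 genes, beside 13.4% of all genes as deposited and 13.8% after scaling, and no member passed both limits, which 1.01% of all genes did. For Mrps12 the interaction was 0.27 ± 0.027, adjusted p = 1.04e-04. The separate differences of Mrps12 were -0.48 and -0.45, and that with both compounds was -0.66, smaller than their sum. For Mrpl37, at 20.6, 20.5 and 19.1 TPM in vehicle, 14.8, 15.5 and 14.9 under UK5099, 13.5, 13.1 and 13.1 under butyrate and 11.98, 11.9 and 12.2 under both, the interaction was 0.27 ± 0.041, adjusted p = 0.00139. The values after median of ratios scaling were 0.27 and 0.26. Without UK5099 sample 1 and combination sample 1 Mrpl37 no longer passed, at 0.26 with adjusted p = 0.0105 by limma, and Mrpl16, of the large subunit, passed in its place, at 0.26 with adjusted p = 0.00165, where with all samples its adjusted p was 0.0627. Mrpl55 had the next highest value, 0.24 ± 0.092, adjusted p = 0.105. At the lower end Mrps6 (-0.14 ± 0.037, adjusted p = 0.0248), Mrps15 (-0.12) and Mrps23 (-0.11) did not pass, nor did Mrpl23 (-0.20 ± 0.12, adjusted p = 0.29).

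The counts by place in the ribosome are set against genes called lower as deposited with UK5099, butyrate and both. These were 24.7%, 35.9% and 40.8% of all genes, and 38.1%, 57.6% and 64.2% of those averaging 1 TPM or more. Of 26 small subunit genes, 14 were lower with UK5099, 16 with butyrate and 24 with both as deposited, with medians of -0.14, -0.18 and -0.33. Of 51 large subunit genes, 28, 30 and 38 were lower, with medians of -0.18, -0.20 and -0.31, and Mrpl17 was the one gene higher. Of 44 genes on a list of bacterial counterparts made by gene number, 26, 27 and 35 were lower. Of the 33 other members without Mrps36, 16, 19 and 27 were. That list is not complete, so the 33 also hold genes with a bacterial counterpart. The medians of these last 2 classes with butyrate were both -0.19. After median of ratios scaling, where 20.2% of all genes were higher and 18.2% lower with butyrate, higher calls outnumbered lower ones in every class with butyrate and with both. Of genes averaging 1 TPM or more, 27.6% were then higher and 28.6% lower with butyrate, and 30.8% and 31.5% with both. Of the small subunit genes 13 were higher and 2 lower with butyrate, and 10 and 4 with both. Of the large subunit genes these counts were 20 and 3, and 24 and 4. Of the 44 listed genes they were 19 and 3, and 20 and 5, and of the 33 others 14 and 2, and 14 and 3. The difference between subunits was not tested.

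Mrps18a, Mrps18b and Mrps18c are paralogues of 1 bacterial protein, of which Mrps18a sits in the large subunit and the other 2 in the small. Mrps18b stood at 15.9, 17.8 and 16.4 TPM in vehicle and 10.8, 11.1 and 11.3 TPM with butyrate (-0.55 ± 0.044, adjusted p = 3.13e-06). Mrps18a stood at 5.21, 4.97 and 5.01 TPM in vehicle and 4.05, 4.35 and 4.25 TPM with butyrate (-0.22 ± 0.027, adjusted p = 6.65e-05). Mrps18c stood at 11.7, 11.1 and 10.7 TPM in vehicle and 9.89, 8.85 and 8.22 TPM with butyrate (-0.29 ± 0.062, adjusted p = 0.00304). No vehicle sample overlapped a butyrate sample in any of the 3 paralogues, but only Mrps18b was called lower after scaling (-0.21), with 0.08 for Mrps18a and 0.04 for Mrps18c.

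Of the other members named for their role, Mrps30, a large subunit protein in spite of its name, differed by -0.14 ± 0.031, adjusted p = 0.00489 with UK5099 and -0.13 ± 0.031, adjusted p = 0.00547 with butyrate. Mrpl58, a peptidyl-tRNA hydrolase that became a structural protein, differed by -0.32 ± 0.037, adjusted p = 8.98e-05 with UK5099. Mrps36 is now assigned to the oxoglutarate dehydrogenase complex and not to the ribosome. By limma it differed by -0.21 ± 0.053, adjusted p = 0.00803 with butyrate and -0.10 ± 0.053, adjusted p = 0.167 with UK5099. As deposited, the median of genes averaging 1 TPM or more was -0.12 with UK5099 and -0.30 with butyrate. With butyrate Mrps30 and Mrps36 differed less than this median, and neither was called lower on all 3 scales.

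Several members share a start region with a gene that runs the other way. Mrps12 and Sars2 (mitochondrial seryl-tRNA synthetase), whose starts lie 172 bp apart, were each the lowest of their list with UK5099, at -0.48 and -0.41, and with butyrate they stood at -0.45 and -0.10, where only Mrps12 was called. With UK5099 after median of ratios scaling they stood at -0.33 and -0.29, where again only Mrps12 was called. Mrpl37 and its partner Cyb5rl stood at -0.39 and -0.56 with UK5099, and both were called lower on both scales. Mrpl30 and Mitd1, 66 bp apart, stood at 0.14 and -0.40 with butyrate, where Mitd1 alone was called, and at 0.48 and -0.10 after scaling, where Mrpl30 alone was called. Mrps18b and Ppp1r10, a regulatory subunit of protein phosphatase 1, 45 bp apart, stood at -0.55 and 0.66, in opposite directions on both scales (-0.21 and 1.01 after scaling). Mrpl49 and Fau, which encodes a cytosolic ribosomal protein, stood at -0.37 and 0.13 with UK5099, where Fau was not called as deposited, and at -0.22 and 0.28 after scaling, where both were called.

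A further 5 mitoribosomal proteins carry other names, and they and the gene lists that follow are counted as deposited unless a scale is given. As deposited 24.7%, 35.9% and 40.8% of all genes were lower with UK5099, butyrate and both, and 8.24%, 9.70% and 10.1% higher. After scaling these shares were 13.6%, 18.2% and 20.6% lower, and 13.6%, 20.2% and 23.4% higher. Of genes averaging 1 TPM or more, 38.1%, 57.6% and 64.2% were lower as deposited, and 12.3%, 11.7% and 11.2% higher. After scaling, 19.9%, 28.6% and 31.5% of these were lower, and 21.8%, 27.6% and 30.8% higher. Ptcd3, of the small subunit, stood at 7.14 ± 0.0828 TPM in vehicle, 5.52 ± 0.224 under UK5099, 5.47 ± 0.07899 under butyrate and 4.46 ± 0.102 under both (SD, n = 3). Of the 5, 4 were lower with UK5099, 3 with butyrate and 4 with both, and none was higher as deposited. After median of ratios scaling 1 was lower with UK5099, 2 were higher with butyrate, and 2 were higher and 1 lower with both. Chchd1 was lowest with both (-0.60 ± 0.070, adjusted p = 3.97e-05). Dap3, a GTP-binding protein of the small subunit, differed least from vehicle with butyrate (-0.05 ± 0.028, adjusted p = 0.177), and Aurkaip1 (-0.24) and Gadd45gip1 (-0.08) lay between.

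The 25 assembly factors, which modify the rRNAs and fit the proteins onto them, held a wider range of differences, down to -1.04. With butyrate 12 were lower and 1 higher, and with both compounds 17 were lower and 2 higher. After scaling the counts were 4 lower and none higher with UK5099, 5 lower and 8 higher with butyrate, and 5 lower and 7 higher with both. Mettl17, a methyltransferase-like factor of the small subunit, fell from 7.63 ± 0.567 TPM in vehicle to 3.91 ± 0.286 TPM with butyrate and 3.203 ± 0.215 TPM with both. Its differences were -0.81 ± 0.061, adjusted p = 1.87e-06 and -1.04 ± 0.061, adjusted p = 2.18e-07, and -0.51 and -0.62 after scaling. Ddx28, a helicase of large subunit assembly, was also lower as deposited (-0.64 ± 0.10, adjusted p = 3.89e-04 with butyrate) but was not called after scaling (-0.30). Mrm1, a 16S rRNA methyltransferase, rose with both compounds (0.40 ± 0.088, adjusted p = 0.00282), and so did Tfb1m, the 12S rRNA dimethyltransferase, from a low level (0.13 ± 0.033, adjusted p = 0.00615). With UK5099 13 factors were lower and none higher, with Mrm2 (-0.33) and Noa1 (-0.33) lowest.

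Of 16 translation factors, 8 were lower with UK5099, 7 with butyrate and 11 with both, and Guf1, a back-translocating GTPase, was the 1 called higher as deposited, with butyrate (0.12 ± 0.024, adjusted p = 0.00159). After scaling 3 were lower with UK5099, 6 were higher with butyrate, and 6 were higher and 1 lower with both. Tsfm, the elongation factor Ts, was lowest in all 3 comparisons, at -0.40, -0.44 and -0.57. Of 17 mitochondrial aminoacyl-tRNA synthetases, 8 were lower and 1 higher with butyrate. The one higher was Mars2, which charges methionine tRNA, at 2.37 ± 0.0756 TPM in vehicle and 3.61 ± 0.0885 TPM with butyrate (0.45 ± 0.033, adjusted p = 1.40e-06). Yars2 was lowest with butyrate (-0.47 ± 0.062, adjusted p = 1.07e-04). With UK5099 8 synthetases were lower and with both compounds 13 were lower and 1 higher. After scaling 8 were higher and none was lower with butyrate and with both, and with UK5099 3 were higher and 1 lower, where voom gave 1 higher and 3 lower.

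Among 10 genes of mitochondrial transcription and replication the subunits of the DNA polymerase moved apart. Polg2, the accessory subunit, stood at 1.47 ± 0.0373 TPM in vehicle and 1.47 ± 0.0684 with UK5099 and rose to 5.01 ± 0.157 TPM with butyrate and 5.66 ± 0.434 TPM with both. Its differences were 1.28 ± 0.044, adjusted p = 9.76e-09 and 1.43 ± 0.044, adjusted p = 2.47e-09. Polg, the catalytic subunit, fell from 20.3 ± 0.377 TPM to 12.8 ± 0.293 TPM with butyrate and 10.4 ± 0.167 TPM with both (-0.63 ± 0.021, adjusted p = 8.58e-09 and -0.90 ± 0.021, adjusted p = 5.14e-10). Polrmt, the mitochondrial RNA polymerase, also fell (-0.60 ± 0.042, adjusted p = 1.11e-06 with butyrate). All of these directions held after scaling, at 1.51, -0.29 and -0.29 with butyrate. Of the list, 7 genes were lower in each comparison, and Polg2 was the 1 higher with butyrate and with both as deposited. After scaling 1, 2 and 2 were lower with UK5099, butyrate and both, and 2 were higher with butyrate and with both.

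Of 9 nuclear regulators of mitochondrial biogenesis, Myc, a transcription factor that drives ribosome production, rose most. Myc stood at 88.3 ± 2.19 TPM in vehicle, 132 ± 3.596 under UK5099, 202 ± 2.43 under butyrate and 209.8 ± 3.98 under both. Its differences from vehicle were 0.58, 1.18 and 1.24. Pprc1, a coactivator of the PGC-1 family, fell with butyrate (-0.52 ± 0.050, adjusted p = 1.06e-05), and its relative Ppargc1b rose from a very low level (0.10 ± 0.020, adjusted p = 0.00219). Nrf1 and Gabpa, the factors whose cores were counted above (Gabpa is of the ETS family), were lower with butyrate as deposited, at -0.23 and -0.21, and after scaling Nrf1 was not called and Gabpa was higher, at 0.12. In all, 3, 5 and 7 of the 9 regulators were lower with UK5099, butyrate and both, and 1, 2 and 2 were higher. After scaling 1, 1 and 0 were lower, and 2, 5 and 3 were higher, whereas voom gave 3 lower with both.

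The ribosome built from these proteins holds and reads RNAs of the mitochondrial chromosome, whose levels were as follows. Their share of fragments was 2.59 ± 0.114% in vehicle, 2.64 ± 0.0923% under UK5099, 3.598 ± 0.155% under butyrate and 4.68 ± 0.198% under both. Of 2 rRNAs and 13 mRNAs, 7 were higher and 1 lower with butyrate, and 10 were higher and 1 lower with both. With UK5099 1 was higher and 2 were lower. The 12S rRNA mt-Rnr1 stood at 2472 ± 57.4 TPM in vehicle, 3153 ± 84.7 under UK5099, 7239.8 ± 182 under butyrate and 10790.4 ± 536 under both. Its differences were 0.35 ± 0.038, adjusted p = 5.13e-05 under UK5099, 1.55 ± 0.038, adjusted p = 1.43e-09 under butyrate and 2.12 ± 0.038, adjusted p = 1.26e-10 under both. The 16S rRNA mt-Rnr2 rose less (0.77 ± 0.038, adjusted p = 9.97e-08 with butyrate and 1.17 ± 0.038, adjusted p = 3.52e-09 with both). The labels describe depletion of rRNA followed by mRNA enrichment, and the study's methods describe mRNA enrichment alone with another kit. These values are what library preparation left, and its part in the differences was not tested.

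Among the mRNAs, mt-Nd2 rose most with butyrate (0.53 ± 0.050, adjusted p = 1.02e-05), and mt-Cytb was lower as deposited (-0.37 ± 0.042, adjusted p = 3.63e-05) but not after scaling. The interaction was above 0 for all 15 and passed the limit for 7 of them as deposited and for 15 by voom, with mt-Cytb highest at 0.61. After median of ratios scaling 12 of the 15 were higher with butyrate and 15 with both, with medians of 0.57 and 0.96, where the medians of the 78 ribosomal protein genes were 0.12 and 0.14.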

How the data were processed

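RNA was sequenced from 12 organoid samples, 3 in each of 4 groups taken from the labels. The authors deposited TPM per gene, with a gene length that equals the genomic span in 100% of genes. Per the labels, reads were aligned with STAR 2.7.9a to GRCm39 and quantified in Partek. The study's methods give a different library kit, aligner version and build, and the table's nuclear coordinates are not those of GRCm38.

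Fragments were recovered from TPM and span, and 75.8% of protein-coding values under 1000 fragments were whole within 0.02. Values as log2(TPM + 1) were fitted with limma 3.58.1 (R 4.3.3) in a model with UK5099, butyrate and their interaction over all 12 samples and 24674 genes, with Benjamini-Hochberg adjustment and a limit of 0.01. Alternatives were median of ratios scaling, quantile normalisation, rescaling to nuclear protein-coding genes, voom on the recovered fragments, other pseudocounts (0.1 and 0.01), a filter of 1 TPM, a trended and robust prior, a limit of 0.05, only the groups compared, a replicate block and each sample left out. Leaving out UK5099 1 and combination 1 together, with either scaling, and exonic lengths from GENCODE M21 were chosen after seeing the data.

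Named genes were the 6 highest and 6 lowest coefficients of each treatment against vehicle, and the 3 highest and 3 lowest of the other comparisons, among members of at least 1 TPM in vehicle, with the 5 highest and lowest levels, 7 genes chosen by role, and the 2 extremes of each pathway list. Other members named for calls on 3 scales, for a neighbouring gene, or as Mrpl16 and Mrpl23 were chosen after their values were seen. Members and lists were chosen with earlier results of these data known. The fit was tested on simulated data with known changes and no shift of scale between groups. Changes of 0.3 were called in 32 of 69 genes for UK5099 and 27 of 71 for butyrate. Those of 0.6 were called in 55 of 56 and 59 of 64, with 5 and 1 false calls.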

Additional observations from a re-analysis of the deposited data

Results flagged for a closer look

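The interaction of UK5099 and butyrate, which tests whether the effect of one compound differs with the other, passed an adjusted p of 0.01 by limma for 2 of the 78 genes. For Mrps12 the interaction was 0.27 in log2(TPM + 1), and for Mrpl37 it was also 0.27. In both genes the difference with both compounds was smaller than the sum of the differences with each. Without UK5099 sample 1 and combination sample 1, Mrps12 still passed and Mrpl37 did not. These 2 samples stood apart in the chi-square between pairs of replicates. With 3 samples in a group, no test of a single sample against its group was run.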

How the results depend on the processing

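The scale of the values decided most counts, and the cause was not tested. With UK5099 against vehicle, the 0 genes called higher became 4 with median of ratios scaling, 3 with quantile normalisation, 3 with voom on the recovered fragments, 1 with nuclear protein-coding genes rescaled and 1 at an adjusted p limit of 0.05. The 42 called lower became 13 (median of ratios), 18 (quantile) and 15 (voom). With butyrate the 1 called higher became 33, 33 and 28 on these 3 scales, 14 after the nuclear rescaling and 3 at the 0.05 limit, and the 47 called lower became 5, 8, 10 and, after the nuclear rescaling, 20. With both compounds the 0 called higher became 34, 33, 30 and 8, and the 63 called lower became 8, 10, 13 and 35. For butyrate against UK5099 the 14 called higher became 39, 40, 37 and 37, and the 13 called lower became 4, 2, 5 and 5. The 14 became 9 when only the groups compared entered the fit. The 2 interactions became 4 with quantile normalisation and 8 at the 0.05 limit.

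The median over the 78 genes changed sign on the same scales. It became 0.12 (median of ratios), 0.11 (quantile) and 0.10 (voom) with butyrate, 0.14, 0.11 and 0.11 with both compounds, and 0.15, 0.18, 0.15 and, after the nuclear rescaling, 0.15 for butyrate against UK5099.

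Without UK5099 sample 1 and combination sample 1, 14 became 8 for butyrate against UK5099, and no other count of calls moved by more than 1.5 times. The 2 interactions stayed 2 because Mrpl16 passed and Mrpl37 did not. Combined with median of ratios scaling, the counts higher and lower were 3 and 12 with UK5099, 34 and 7 with butyrate, 32 and 7 with both, and 36 and 2 for butyrate against UK5099, with medians of 0.12, 0.13 and 0.15 for the last 3.

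With each sample left out in turn, the calls with UK5099 were 0 to 1 higher and 32 to 43 lower, those with butyrate 1 to 2 and 42 to 47, those with both 0 to 0 and 58 to 63, those of butyrate against UK5099 6 to 13 and 10 to 14, and the interactions 2 to 3. A fit with a replicate block gave 8 higher calls for butyrate against UK5099 in place of 14 and moved no other count by more than 1.5 times. No pairing of samples by number was seen. Correlations of deviations between same-numbered samples lay between -0.11 and 0.03, and 1 of 12 samples correlated best with its own number. With so few samples in a group, these values cannot exclude a pairing.

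Named genes near 0 changed sign, and none of these values was called as deposited. Mrpl50, UK5099 against vehicle, became 0.13 (median of ratios), 0.12 (quantile), 0.14 (voom) and 0.13 (median of ratios without both samples), and lay between -0.051 and 0.0281 with each sample left out. Mrpl33, UK5099 against vehicle, became 0.0835, 0.0666, 0.1092 and 0.0543, and Mrpl30, UK5099 against vehicle, 0.1114, 0.0943, 0.1095 and 0.1052. Mrps10, UK5099 against vehicle, lay between -0.0095, without Vehicle replicate 1, and 0.0531. Mrpl32, UK5099 + Butyrate against vehicle, became 0.46, 0.45, 0.44, 0.48 and, after the nuclear rescaling, 0.19. Mrpl50, UK5099 + Butyrate against vehicle, became 0.47, 0.47, 0.46, 0.48 and 0.20, 0.006 without both samples, and between -0.0482 and 0.0309 with each sample left out. Mrpl17, UK5099 + Butyrate against vehicle, lay between -0.0043 and 0.0247 with each sample left out.

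Other pseudocounts, the filter of 1 TPM and the trended and robust prior kept the direction and call of every result named here. Fragments per exonic length from an annotation of the files' own build were not run. The lowest value of a member rested on 50.8 fragments, so the low genes are the least precise, and counting error is only part of the spread between samples.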
